A study of Mus musculus with 4 samples.

Results

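The HoxB complex on chromosome 11 was examined for Meis occupancy in limb buds, from Hoxb13 at its 5′ end to Hoxb1 at its 3′ end. Its members were the 10 genes Hoxb13, Hoxb9, Hoxb8, Hoxb7, Hoxb6, Hoxb5, Hoxb4, Hoxb3, Hoxb2 and Hoxb1, and the Meis peaks whose summit lay between 96000000 and 96350000 (mm9). The rule used position only. It kept 78 of 22906 summits in forelimbs (FLs) and 59 of 17810 in hindlimbs (HLs). Summits within the same called region were joined into 1 peak, which left 64 of 21338 FL peaks and 55 of 16987 HL peaks.

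Buds came from wild-type C57BL/6 embryos at E10.5, a stage of about 36 somites. FL and HL buds were pooled separately from many embryos, and each pool gave 1 ChIP library and 1 library of input chromatin, which had not been precipitated. The input enters only through the peak calls. The ChIP libraries used antibodies against Meis1 and Meis2 together, so the peaks do not tell these proteins apart. With 1 ChIP library per limb there is no spread between replicates, so the limbs were compared without a test, and their differences describe these libraries alone. Gene expression was not measured in these libraries, and the buds hold all cell types of the limb at this stage.

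Hox genes encode homeodomain transcription factors and stand in clusters in which their order on the chromosome follows their order of activation along the body axis, with the 3′ genes switched on first and in the more anterior tissues. Meis1 and Meis2 are homeodomain proteins of the TALE family that bind DNA with Hox and Pbx proteins, and Hox genes are themselves among the known targets of such complexes. In the hindbrain, enhancers next to Hoxb1 and Hoxb2 are known to work through sites for Pbx and Hox proteins and nearby sites for Meis or Prep proteins.

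All 10 genes are read in the same direction, towards higher coordinates. Their starts in mm9 were worked out from published distances between FL summits and genes, which placed Hoxb5 at 96163909, Hoxb4 at 96177998, Hoxb3 at 96184640, Hoxb2 at 96212946, Hoxb1 at 96227066 and Skap1, the first coding gene 3′ of Hoxb1, at 96325907. The spacing of Hoxb3, Hoxb2, Hoxb1 and Skap1 was the same in the GRCm38 annotation (GENCODE release M21) to within 1 bp. The Hoxb5 and Hoxb4 starts rested on a distance each and lay 917 and 1583 bp further 5′ than in GRCm38. Hoxb13, Hoxb9, Hoxb8, Hoxb7 and Hoxb6 had no distance. They are located below only by how far they lie 5′ of Hoxb1 in GRCm38, which is 171 kb for Hoxb13, 94.3 kb for Hoxb9, 83.8 kb for Hoxb8, 79.1 kb for Hoxb7 and 73.3 kb for the first start of Hoxb6. Statements on exons, introns and starts use the distance from Hoxb1 in each genome, and a change in length between the builds 5′ of Hoxb3 would shift them.

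Promoter sequence was at hand for Hoxb1, Hoxb4 and Hoxb8 of the 10 genes (RefSeq, GRCm38.p6, plus strand). The 250 bases before each start are shown because these genes stand at different places in the peak landscape: Hoxb1 beside the HoxB peak with the lowest p in HLs, Hoxb4 next to the middle of the window, and Hoxb8 in the stretch with hardly any peaks. The regions are chr11:96365508-96365757 for Hoxb1, chr11:96318017-96318266 for Hoxb4 and chr11:96281655-96281904 for Hoxb8. Capitals mark matches to TGATNNAT on either strand, the core shape of joint Pbx and Hox sites.
Hoxb1: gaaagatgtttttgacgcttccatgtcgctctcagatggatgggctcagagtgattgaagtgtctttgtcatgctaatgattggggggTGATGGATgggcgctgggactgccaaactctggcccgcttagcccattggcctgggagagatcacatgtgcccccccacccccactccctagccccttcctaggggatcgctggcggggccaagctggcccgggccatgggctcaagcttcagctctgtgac
Hoxb4: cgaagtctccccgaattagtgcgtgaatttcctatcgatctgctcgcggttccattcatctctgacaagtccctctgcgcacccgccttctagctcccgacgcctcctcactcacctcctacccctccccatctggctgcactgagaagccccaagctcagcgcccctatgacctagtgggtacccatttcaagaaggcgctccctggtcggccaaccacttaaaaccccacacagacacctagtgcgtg
Hoxb8: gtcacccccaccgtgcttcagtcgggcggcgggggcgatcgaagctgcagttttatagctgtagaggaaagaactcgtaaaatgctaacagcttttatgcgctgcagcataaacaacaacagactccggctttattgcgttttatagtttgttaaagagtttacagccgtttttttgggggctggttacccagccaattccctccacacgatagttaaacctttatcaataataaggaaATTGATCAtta

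Hoxb1 held TGATGGAT 162 to 155 bases before its start, on the plus strand. Hoxb8 held TGATCAAT on the minus strand, 11 to 4 bases before its start, and Hoxb4 held no match. Of 32851 promoters of the same length, 7.68% held a match to TGATNNAT, which was chosen after the sequences had been seen. None of the 3 HoxB promoters held TGACAG, the Meis core, TGATTTAT or TGATTGAT on either strand, which 15.9%, 0.837% and 0.670% of all promoters held. A match is a run of letters and not a measured site, and the lack of one covers only these 250 bases.

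Meis peaks were crowded at the 3′ side of the complex and sparse at the 5′ side in both limbs. The middle of the window lies between the Hoxb5 and Hoxb4 starts, so that the 5′ side holds Hoxb13 to Hoxb5 and the 3′ side holds Hoxb4 to Hoxb1, the stretch up to Skap1 and the first part of Skap1. In FLs, 7 peaks lay on the 5′ side and 57 on the 3′ side, or 4.0 and 32.6 per 100 kb. The 3′ side thus held 89.1% of the FL peaks (95% Wilson interval 79.1 to 94.6%, n = 64, counting error only). In HLs, the counts were 9 and 46, or 5.14 and 26.3 per 100 kb, and the 3′ side held 83.6% (71.7 to 91.1%, n = 55). Median folds over input were 2.84 on the 5′ side and 2.78 on the 3′ side in FLs, and 2.48 and 2.71 in HLs. The whole lists had a median fold of 2.78 in each limb. Most peaks were weak calls, so medians near that value were largely fixed by the limit of the caller and say little about the sides. The sides differed in the number of peaks and in the tallest of them. The tallest reached 3.63 on the 5′ side and 10.2 on the 3′ side in FLs, and 5.64 and 7.88 in HLs. The maximum of a larger set tends to be higher, so the difference in the tallest peaks cannot be told apart from that in the counts, and this was not tested.

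**Figure D1:**
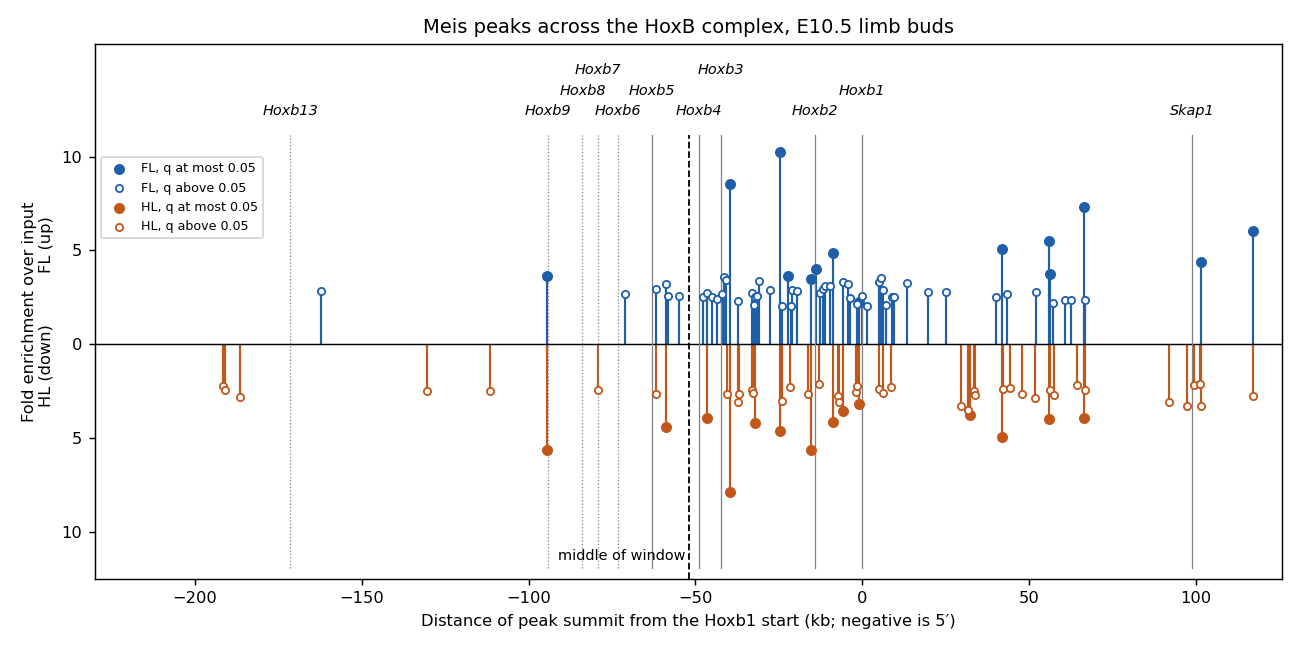
Each line is a Meis peak, placed by the distance of its summit from the Hoxb1 start in kb and drawn to its fold enrichment over input, upwards for FL and downwards for HL. Filled points have q at most 0.05, solid grey lines are gene starts placed in mm9, dotted ones are starts placed by their GRCm38 distance, and the dashed line is the middle of the window, with 7 FL and 9 HL peaks on its 5′ side and 57 and 46 on its 3′ side.

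Peaks were most closely spaced in the interval between Hoxb2 and Hoxb1. Over its 14.1 kb it held 12 FL peaks, or 8.50 per 10 kb, and 8 HL peaks, or 5.67 per 10 kb. The 28.3 kb from Hoxb3 to Hoxb2 followed with 18 FL and 12 HL peaks, or 6.36 and 4.24 per 10 kb. From the window start to Hoxb5, a stretch of 164 kb with Hoxb13, Hoxb9, Hoxb8, Hoxb7 and Hoxb6 in it, there were 3 FL and 7 HL peaks, or 0.183 and 0.427 per 10 kb.

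Between these extremes the limbs differed in order. Hoxb5 to Hoxb4 held 4 FL and 2 HL peaks, and the short interval from Hoxb4 to Hoxb3 held 4 FL peaks and 1 HL peak. Beyond Hoxb1 the limbs had the same number, 21 peaks each over the 98.8 kb to Skap1, or 2.12 per 10 kb. The last stretch, from Skap1 to the window end, held 2 FL and 4 HL peaks. Counts this small, from a library per limb, do not rank neighbouring intervals.

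**Figure D2:**
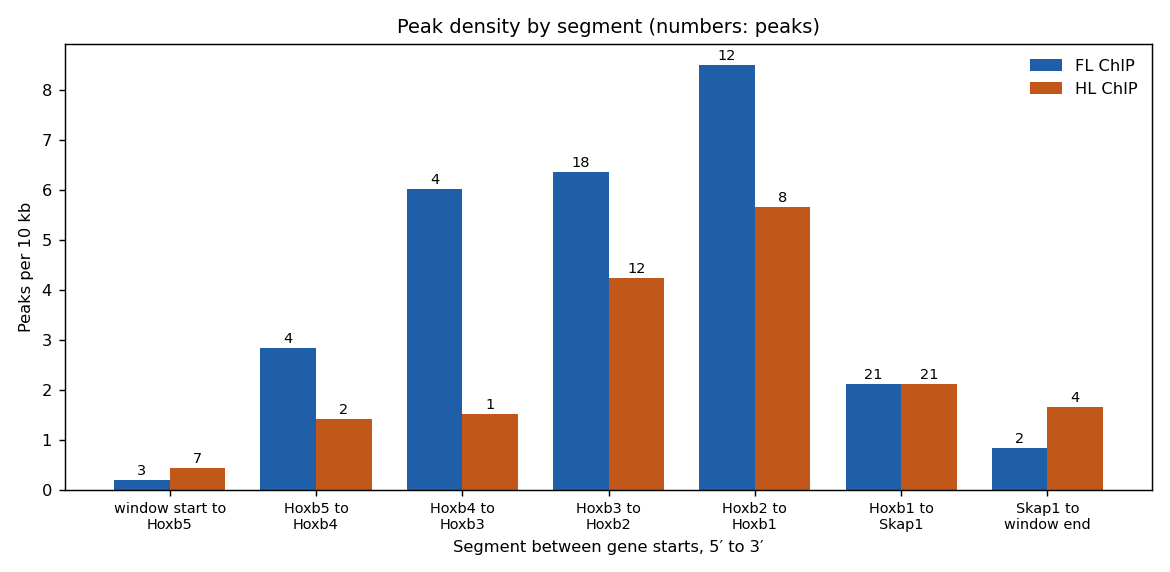
Bars give Meis peaks per 10 kb in each interval between gene starts, 5′ to 3′, for the FL and HL ChIP libraries, with the number of peaks above each bar. Density was highest between Hoxb2 and Hoxb1 in both limbs, at 8.50 (FL) and 5.67 (HL), and lowest 5′ of Hoxb5, at 0.183 and 0.427.

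The gaps between peaks showed the same layout. Neighbouring summits on the 3′ side were a median of 1400 bp apart in FLs and 2010 bp in HLs, against 6259 and 16258 bp on the 5′ side. Over the whole lists the median was 35936 bp in FLs and 40082 bp in HLs. The longest stretch without a peak on the 5′ side was 67.6 kb in FLs, between summits at 96064939 and 96132575, and 56.0 kb in HLs, between 96040662 and 96096709. By GRCm38 distances, the FL stretch runs from 3′ of Hoxb13 to Hoxb9.

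Counting all peaks, no window of this width elsewhere in the genome held as many in either list. Cut into windows of 350 kb, and without the 2 that touch HoxB, the genome gave 7495 windows for FLs, with a median of 2 peaks and at most 37, and 7492 windows for HLs, with a median of 1 and at most 36. The HoxB window held 64 and 55. Because it was placed around the complex while the others were laid out from each chromosome start, windows were also started at every peak, and the fullest one that did not touch HoxB held 47 peaks in FLs and 46 in HLs. This no longer held for peaks with q at most 0.05, of which HoxB had 14 in each limb and the fullest window elsewhere 23 in FLs and 17 in HLs. The neighbouring windows of the same width held fewer, with 4 FL and 7 HL peaks on the side of lower coordinates and 11 and 13 on the other. At least as many were found in 27.9% and 9.77% of the windows for the first neighbour, and in 4.78% and 2.42% for the second. Even the 5′ side was not poor in peaks by genome standards: in windows of 175 kb, which held a mean of 1.42 FL and 1.13 HL peaks, only 3.95% had at least 7 FL peaks and 1.43% at least 9 HL peaks.

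**Figure D3:**
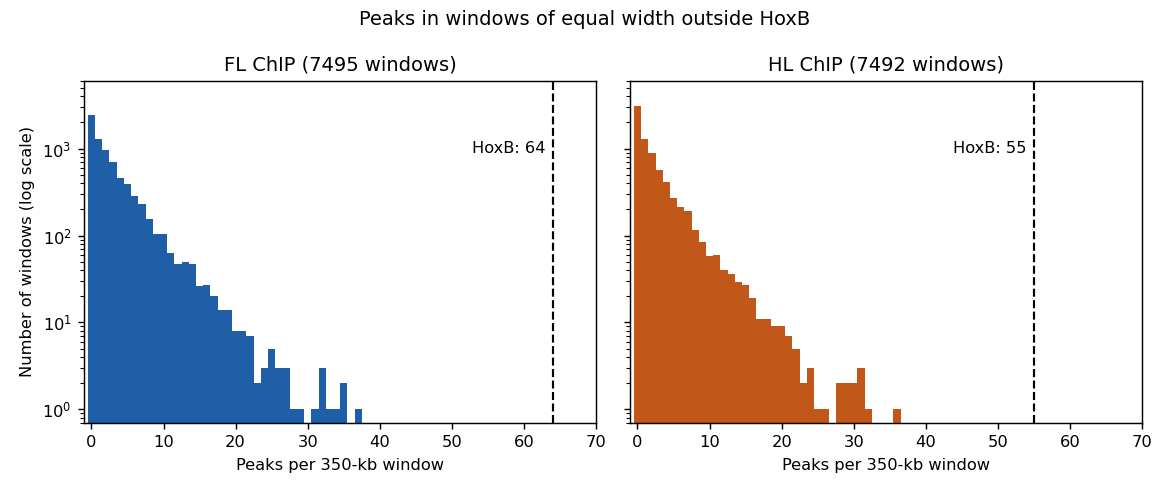
Bars count the 350-kb windows outside HoxB (log scale) by the number of Meis peaks they hold, for FL on the left and HL on the right. The dashed lines mark the HoxB window, at 64 FL and 55 HL peaks, beyond the fullest of these windows at 37 and 36.

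Most of these peaks were weak calls. The authors' caller gave a q, the p adjusted over the whole list, of at most 0.05 to 14 of the 64 FL peaks, or 21.9% (13.5 to 33.4%), beside 17.4% of all FL peaks. In HLs it did so for 14 of the 55, or 25.5% (15.8 to 38.3%), beside 10.1% of all HL peaks. The FL share therefore lay near that of the whole list, and the HL share above it. The 5′ side held 1 of the 14 in FLs and 2 of the 14 in HLs, which was 14.3% of its peaks, against 22.8% on the 3′ side, in FLs and 22.2%, against 26.1%, in HLs. The median width of the HoxB peaks was 213 bp in FLs and 151 bp in HLs, against 166 and 132 bp over the lists. Several summits within a peak occurred in 17.2% of the FL and 7.27% of the HL members, against 6.14% and 4.15% of all peaks.

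Hoxb13, the most 5′ gene and one used late in the tail end of the body, had no peak within 5 kb of its start in either limb. The nearest lay 9.31 kb 3′ of the start in FLs, with a fold of 2.84, and 14.97 kb 5′ of it in HLs, with a fold of 2.79. Both had a q of 1. From the window start up to the peak at Hoxb9, no peak of either limb had a q of at most 0.05.

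Hoxb9, a gene of the posterior trunk and the first in the main block, had the tallest peak of the 5′ side in both limbs. This peak, at 96132468-96132654 in FLs and 96132366-96132646 in HLs, had its summit 196 and 183 bp 5′ of the Hoxb9 start by GRCm38 distance. Its fold was 3.63 in FLs (q = 0.0206) and 5.64 in HLs (q = 2.69e-06). In HLs it was the third tallest peak of the whole complex, and in FLs the 12th. It was the only peak within 5 kb of the start in each limb.

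Hoxb8, Hoxb7 and Hoxb6, also genes of the trunk, lay in a stretch with few peaks. Hoxb8 had no FL peak within 10.6 kb of an annotated start. Its nearest HL peak lay 3.96 kb 3′ of a second annotated start, which is further 3′ than the start given above. That peak, at 96147980-96148185, had its summit 65 bp 3′ of the Hoxb7 start and a fold of 2.45 (q = 1). No FL peak came within 8.04 kb of the Hoxb7 start. Near Hoxb6, an FL peak at 96155861-96156113 with a fold of 2.68 (q = 0.0703) lay 2.19 kb 3′ of the upstream start, in an intron of the longer transcript, and had no HL counterpart.

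Hoxb5 had a weak peak in both limbs. It lay at 96165164-96165488 in FLs, with a fold of 2.94, and at 96165243-96165342 in HLs, with a fold of 2.65, both with a q of 1. Its summits were 405 and 455 bp 3′ of the Hoxb5 start by GRCm38 distance, in coding sequence, or 1.32 and 1.37 kb by the mm9 start. A stronger peak followed at 96168278-96168554 in FLs and 96168293-96168551 in HLs, 3.56 kb 3′ of the start by GRCm38 distance. It had a fold of 3.22 (q = 0.304) in FLs and 4.39 (q = 0.000738) in HLs, so that only the HL peak passed a q of 0.05.

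FL peaks stood at 2.84 per 10 kb from Hoxb5 to Hoxb4 and 6.02 from Hoxb4 to Hoxb3, with 4 peaks in each interval. HL peaks stood at 1.42 and 1.51 per 10 kb there, from 2 peaks and 1 peak, and at 4.24 from Hoxb3 to Hoxb2. With the Hoxb5 and Hoxb4 starts by GRCm38 spacing, the FL counts were 5 and 3. In these 2 intervals no FL peak had q at most 0.05, while 1 HL peak in each did. Counts this small do not show where peaks became denser in either limb. In FLs a peak at 96179391-96179513, with a fold of 2.54 (q = 1), lay 137 bp 5′ of the Hoxb4 start by GRCm38 distance but 1.45 kb 3′ of the start placed in mm9, so its position relative to the promoter shown above is unsettled. HLs had no peak there. The peak shared by the limbs lay in the Hoxb4 intron, at 96180420-96180803 in FLs with a fold of 2.73 (q = 0.771) and at 96180426-96180837 in HLs with a fold of 3.92 (q = 0.0114).

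Hoxb3 carried the tallest peaks of the complex. Its longest transcript starts well 5′ of the others and reaches almost to Hoxb2, and 15 FL and 9 HL peaks lay in its introns. The peak at 96187293-96187621 in FLs and 96187074-96187780 in HLs had its summits 2.82 and 2.81 kb 3′ of the upstream start, with folds of 8.53 (q = 3.86e-19) and 7.88 (q = 9.76e-16). It was the tallest HoxB peak in HLs and the second in FLs, its summits were 2 bp apart, and its height was nearly equal in the libraries. At the upstream start itself there was a weak FL peak, 96184936-96185060, with a fold of 2.68 (q = 1) and its summit 355 bp 3′ of the start. The HL peak nearest to a Hoxb3 start, 96205374-96205610, lay at the downstream one, 436 bp 3′ of it, with a fold of 2.30 (q = 1).

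The other tall peak of Hoxb3 was not. At 96202365-96202638 in FLs and 96202430-96202589 in HLs, 24.6 kb 5′ of Hoxb1 and still in a Hoxb3 intron, it had a fold of 10.2 (q = 3.98e-21) in FLs and 4.65 (q = 0.000114) in HLs. That made it the tallest HoxB peak in FLs and the fifth in HLs. Among all FL peaks it ranked 150th by fold, as did the tallest HL peak, at 96187074-96187780, among the HL peaks. An FL peak at 96204501-96204714, 407 bp 5′ of the downstream Hoxb3 start, reached 3.65-fold over input (q = 0.0333), and HLs had no peak there.

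Hoxb2, a gene of the hindbrain and anterior trunk, had a peak 1.29 kb 5′ of its start in FLs and 1.28 kb in HLs, in an intron of the antisense RNA Hoxb3os. The FL peak, at 96211516-96211809, had a fold of 3.45 (q = 2.77e-06). The HL peak, at 96211520-96211756, had a fold of 5.64 (q = 7.50e-07) and was the second tallest of the complex in that limb. A further peak at 96213167-96213526, 295 bp 3′ of the Hoxb2 start and in coding sequence, was called only in FLs, with a fold of 4.03 (q = 0.000121). The HL peak nearest to the start, 1.17 kb 3′ of it, had a fold of 2.104 (q = 1).

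Hoxb1, the most 3′ gene and the first to be activated, had a broad peak directly 5′ of its start. It spanned 847 bp in FLs, at 96225780-96226626, and 811 bp in HLs, at 96225801-96226611, and each had 2 summits. By p it was the first peak of the complex in HLs (q = 1.47e-21) and the fourth in FLs (q = 1.36e-09), yet its fold was low, at 3.20 and 2.27. Of the 57 HL peaks and 613 FL peaks with a p at least as low, none had a lower fold, and their medians were 12.1 and 8.46. Ranked by fold, the peak was the 18th of the complex in HLs and the 57th in FLs, so the choice of measure decides whether it leads the list. Fold is a ratio to local background, whose height the lists do not give. Whether that background was high at this peak was not tested.

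A small FL peak at 96226846-96226964 lay still closer to Hoxb1, 220 to 102 bp before its start. That distance is from the GENCODE start, 96365752 in GRCm38, while the promoter printed above ends before the RefSeq start and runs to 96365757. The peak thus corresponds to bases 25 to 143 of that promoter, which include the match TGATGGAT at bases 89 to 96. Its fold was 2.58 (q = 0.801), and HLs had no peak there.

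The 3′ flank of Hoxb1 held tall peaks far from any HoxB start. In FLs a peak at 96293142-96293520, 66.3 kb 3′ of the Hoxb1 start, had a fold of 7.30 (q = 2.34e-10), and in HLs its partner at 96293267-96293497 had 3.96 (q = 0.00121). At 96282734-96283252, 56.1 kb 3′ of Hoxb1, the FL fold was 5.48 (q = 2.60e-07) and the HL fold, at 96282895-96283231, was 3.97 (q = 0.0327). At 96268649-96269435, 42.0 kb away, the folds were close, 5.06 in FLs (q = 1.12e-05) and 4.95 in HLs at 96268885-96269125 (q = 0.000179). All 3 lay between genes. Skap1, which encodes an adaptor protein of T cells, held in its introns FL peaks at 96328426-96328734 (fold 4.39, q = 0.00577) and at 96343885-96344324 (fold 6.06, q = 2.56e-08), while the overlapping HL peaks had folds of 3.27 and 2.74 and a q of 1. Nearest to the Skap1 start was an HL peak, 96326554-96326680, with its summit 0.665 kb 3′ of the start placed in mm9 and a fold of 2.17 (q = 1).

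Many HoxB peaks were found in both limbs. Of the 64 FL peaks, 28 (43.8%, 32.3 to 55.9%) overlapped an HL peak by at least 1 bp, beside 22.6% of all FL peaks. Of the 55 HL peaks, 31 (56.4%, 43.3 to 68.6%) overlapped an FL peak, beside 29.0% of all HL peaks. Crowded and wide peaks overlap more often by position alone, and HoxB peaks were denser and wider than those of the lists. The list shares are therefore not a matched background, and how far position raised the HoxB shares was not tested. The shares on the sides were 3 of 7 and 25 of 57 in FLs, and 3 of 9 and 28 of 46 in HLs. Merged across limbs, the peaks formed 88 sites, of which 28 were found in both limbs, 36 in FLs alone and 24 in HLs alone.

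Of the 14 FL peaks with q at most 0.05, 12 overlapped an HL peak (85.7%), beside 67.0% of all FL peaks with such a q. In HLs it was 13 of 14 (92.9%), beside 89.3%. The list shares are no matched background here either. The 2 FL peaks without an HL counterpart were those at the downstream Hoxb3 start and in Hoxb2 described above. The HL peak without an FL counterpart lay at 96259208-96259505, 32.2 kb 3′ of Hoxb1, and had a fold of 3.77 (q = 0.0114). It stood among 5 HL peaks between 96256554 and 96260917, a stretch in which FLs had none. A peak absent from a list may have been just under the limit of the caller, since the lists hold no value for positions that were not called.

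Overlapping peaks had summits close together, which pairing by overlap of narrow regions largely fixed in advance. The nearest summits of the 28 pairs were a median of 33.5 bp and at most 174 bp apart, and 18 pairs (64.3%) were within 50 bp. Over all 4813 pairs of the lists the median was 27 bp, and 73.5% were within 50 bp.

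By raw fold, shared HoxB peaks were higher in FLs as often as in HLs. The log2 ratio of FL to HL fold had a median of -0.01 over the 28 pairs and ranged from -0.74 to 1.14, with FLs higher in 14 pairs (50%) and HLs higher in 14. Among all 4813 pairs the median was 0.17, with quartiles of -0.18 and 0.54, and FLs were higher in 62.1%. The HoxB median thus lay below that of all pairs but between their quartiles. With 1 library per limb, raw folds are not on a common scale. On the 5′ side 1 of 3 pairs was higher in FLs, and on the 3′ side 13 of 25.

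The 3 pairs most in favour of FLs were the Skap1 intron peak at 96343885-96344324, with a log2 ratio of 1.14, the Hoxb3 intron peak at 96202365-96202638, also with 1.14, and the intergenic peak at 96293142-96293520, with 0.88. The 3 most in favour of HLs were the Hoxb3 intron peak at 96194830-96195081, with -0.74 and folds of 2.52 in FLs (q = 1) and 4.21 in HLs (q = 0.0152), the peak 5′ of Hoxb2, with -0.71, and the peak 5′ of Hoxb9, with -0.64. A peak higher in HLs and a peak higher in FLs thus both lay in Hoxb3 introns, 7.63 kb apart, with other FL peaks between them.

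**Figure D4:**
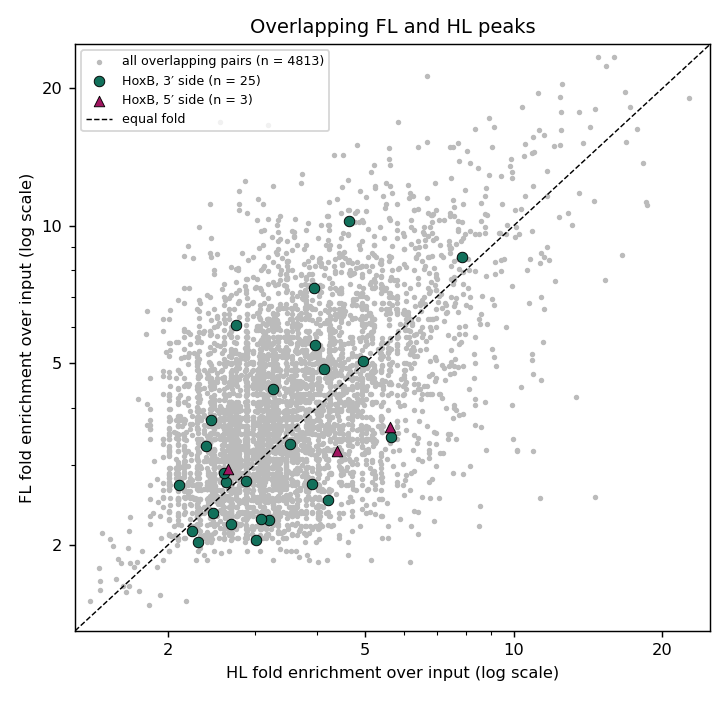
Each point is an FL peak and the overlapping HL peak of highest fold, with the HL fold over input on the x axis and the FL fold on the y axis, both on log scales. Grey points are all 4813 pairs, green circles the 25 pairs on the 3′ side of HoxB and purple triangles the 3 on its 5′ side, and the dashed line marks equal folds, with 14 HoxB pairs on either side of it.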

How the data were processed

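Meis1/2 ChIP-seq peaks of FL and HL buds were analysed. Per the labels and methods, the authors trimmed reads with cutadapt 1.3, aligned them to mm9 (BWA) and called peaks by comparing the ChIP of a limb with its own input (MACS2). The deposited fold enrichment is the ratio of ChIP signal to local background, and the −log10 p and q values the authors deposited were turned back into p and q here. The deposited score was not used for ranking. The lists extend to a p of 0.022 and hold no read counts, so the depth of the libraries is not given by them.

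Summits sharing a region were counted as 1 peak, with its highest fold and lowest p and q. The window was split at its middle, at 96175000. Peaks sharing at least 1 bp overlapped, and each FL peak was paired with the HL peak of highest fold. Peaks with full values were the 5 tallest per limb, those nearest to a gene start, those on the 5′ side with q at most 0.05, the 3 largest ratios in each direction, and those of low q found in 1 limb. Other peaks given with values, such as that near Hoxb6 and those in Skap1, were chosen after their values were seen. Wilson intervals (95%) cover counting error only. Alternatives changed the p, q or fold limit, the split, the overlap, the list length and the windows. The overlap step was tested on simulated data, where it recovered 600 of 600 planted overlaps. Python 3.11.15 with pandas 2.3.3 and scipy 1.17.1 was used. The members, lists and rules were chosen with earlier results of these data known. No mm9 sequence was at hand, so peak sequences and motifs in peaks were not analysed here.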

Additional observations from a re-analysis of the deposited data

How the results depend on the processing

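With 1 library per limb no replicate could be left out, and no paired analysis was possible because each limb gave 1 ChIP library. Of 59 alternatives, 38 kept their value within its counting interval or within 1.5 times, 20 moved it and 1 turned its sign. Stricter limits moved the counts of peaks most: at p up to 0.0005 there were 33 FL and 21 HL peaks, at q up to 0.05 there were 14 and 14, and at a fold of at least 5 there were 6 and 3. The share on the 3′ side was 100% in FLs and 66.7% in HLs at a fold of at least 5, and in FLs 95.3% when split at the Hoxb5 start and 95.1% between Hoxb13 and Hoxb1 alone. Only 35.9% of FL and 45.5% of HL peaks lay 3′ of the Hoxb1 start. The share found in both limbs fell to 28.1% (FL) and 32.7% (HL) where at least 50% of each peak had to be shared. The share of all peaks was not computed at that overlap, so these values cannot be set against the list shares given above for 1 bp. Among peaks with q up to 0.05 the share found in both limbs was 85.7% and 92.9%. Among pairs with a low q in a limb, the median log2 ratio of FL to HL fold was 0.073, against -0.01 over all pairs; both are small beside the range of the pairs. The share passing the limit was 51.6% in FLs at p up to 0.0005 and 14.5% in HLs at q up to 0.01. The shares of all peaks at these limits were not computed, so neither value can be set against the list shares at q up to 0.05. Between Hoxb2 and Hoxb1, 3 FL and 3 HL peaks had q up to 0.05. The causes of these moves beyond the stricter limits were not tested. Windows started at every peak, the Hoxb5 and Hoxb4 starts by GRCm38 spacing, and the TGATNNAT motif were chosen after seeing the data.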
